A study of Mus musculus with 16 samples.

Results

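The miR-181 family of the mouse consists of 4 mature microRNAs (miRNAs), named mmu-miR-181a, mmu-miR-181b, mmu-miR-181c and mmu-miR-181d on the arrays and given below without the species prefix. All 4 were selected by name, with earlier results of these data known, from the 604 mouse miRNAs that both array designs of the study carried. All 4 were among the 175 miRNAs that were tested. A miRNA pairs with messenger RNAs through its seed, a short stretch near its 5′ end, and lowers the output of protein from them. The miR-181 family is best known from developing lymphocytes: miR-181a is abundant in thymocytes, where it raises the sensitivity of the T cell receptor by lowering phosphatases that dampen its signal, and raised miR-181 in blood progenitors has been linked to more cells of the B lineage. The family is made from 3 gene pairs, each of which places 2 members side by side in the genome.

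Levels were measured on 16 one-colour Agilent arrays, with 2 biological replicates of each of 8 cell populations, sorted without culture from female C57Bl/6 mice 6 weeks old. No mutation, transgene or treatment is given for any group, and every replicate was RNA from a pool of mice, so the spread between replicates is that between pools. Marrow pooled from 15 mice per replicate gave the 3 progenitor populations. They were negative for a panel of lineage markers and positive for CD135. They were separated as MP (CD117+ CD115-, a name that the labels do not spell out), MDP, the macrophage and dendritic cell progenitors (CD117+ CD115+), and CDP, the common progenitors of dendritic cells (CD117 low CD115+). Gr1+ monocytes (CD11b+ CD115+ Gr1+) and plasmacytoid dendritic cells or PDC (B220+, CD11c intermediate, SiglecH+, CD317+) were bone marrow cells from pools of 5 mice. Spleens pooled from 8 mice gave the 3 conventional dendritic cell (DC) populations, which were CD11c+ CD3-: CD4+ DC, CD8+ DC, which were also CD86+, and CD4-CD8- DC. Tissue and cell type therefore cannot be told apart wherever spleen DC are compared with marrow cells.

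The members share one seed and differ outside it, and their sequences are shown because the array has to tell them apart. In the RefSeq mature sequences (GRCm38.p6) the seed, bases 2 to 8, is in capitals:
miR-181a: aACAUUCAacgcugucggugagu
miR-181c: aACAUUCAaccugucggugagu
miR-181b: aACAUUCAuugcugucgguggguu
miR-181d: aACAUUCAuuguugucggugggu
Of 1679 mature names in the RefSeq table, 4 carry this seed, and they are the 4 members. By sequence the members pair up as a with c and b with d. A single edit separates miR-181a from miR-181c, and 2 edits separate miR-181b from miR-181d. By contrast, 4 edits separate miR-181a from miR-181b, and 5 separate miR-181c from miR-181d.

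Genomic position pairs them the other way. The mature miR-181a and miR-181b lie together at 2 loci. The first is on the plus strand of chromosome 1, with miR-181a at chr1:137966468-137966490 and miR-181b at chr1:137966650-137966673, 159 bases apart. The second is on the plus strand of chromosome 2, with miR-181a at chr2:38852741-38852763 and miR-181b at chr2:38853845-38853868, 1081 bases apart. The mature miR-181c and miR-181d lie on the minus strand of chromosome 8, at chr8:84178924-84178945 and chr8:84178759-84178781, 142 bases apart. Because the mature sequence is the same from both of its loci, the signal of miR-181a or miR-181b does not tell chromosome 1 from chromosome 2.

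The arrays carry 2 probes for each member. The probes lie on the 3′ side of the miRNA, where the capitals mark the longest run that would also pair with the closest other member:
miR-181a, probe 1: ACTCACCGACAGc
miR-181a, probe 2: ACTCACCGACAGcg
miR-181c, probe 1: ACTCACCGACAGgttgaat
miR-181c, probe 2: ACTCACCGACAGgttgaa
miR-181b, probe 1: ACCCACCGACAgc
miR-181b, probe 2: ACCCACCGACAgca
miR-181d, probe 1: ACCCACCGACAacaat
miR-181d, probe 2: ACCCACCGACAacaatg
The probes of miR-181a and miR-181c share 12 bases of pairing with each other's target, and those of miR-181b and miR-181d share 11. The probes of miR-181a and miR-181b have only 1 to 3 bases beyond that run, and those of miR-181c and miR-181d have 5 to 7. How far a probe took up the miRNA of its closest relative was not tested, and each result below on a with c or on b with d is to be read beside this overlap. The pair of probes for each member followed each other over the 16 arrays, with r from 0.985 to 0.996, although their log2 difference ranged by 0.46 to 0.73 between arrays.

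Between 16.7 and 25.4 percent of the spots on an array were well above background and 0 were saturated, and 116 to 174 miRNAs were detected per array. The first replicates were all on one array design and the second replicates on the other, each design with its own slide and scan. This split entered every fit as a block. Levels are log2 values of the processed signal relative to the array's own 75th percentile, taken over 88 miRNAs that every array detected, so that 0 is the level of a bright miRNA of that array. Each probe has its own brightness, and levels of different members are therefore not ranked against each other. The arrays carry miRNAs alone, so the surface proteins of the sort could not be checked. Among miRNAs that mark cell types, miR-223, a myeloid miRNA, was detected on both arrays of every population, with the highest mean in Gr1+ monocytes (4.42 ± 0.17, SD, n = 2) and the lowest in PDC (0.30 ± 0.30, SD, n = 2).

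All 4 members differed among the 8 populations, in a series where 73.1 percent of the tested miRNAs did (moderated F test of limma, 128 of 175). The adjusted p of limma was 2.03e-06 for miR-181a, 1.67e-06 for miR-181b, 8.41e-06 for miR-181c and 1.53e-05 for miR-181d. From the lowest to the highest population mean the span was 7.89-fold for miR-181a, 10.2-fold for miR-181b and 6.87-fold for miR-181c. For miR-181d it was 11.2-fold on the fitted scale, a value that depends on the floor, since its lowest population, CD4+ DC, was detected on 1 of 2 arrays. Ranked by p among the 175, miR-181b was in place 2, miR-181a in place 12, miR-181c in place 27 and miR-181d in place 36. Of the 28 pairs of populations, 19 passed the test for miR-181a, 21 for miR-181b, 21 for miR-181c and 18 for miR-181d, where the median tested miRNA passed in 11. The share of all tested miRNAs that passed in a pair ran from 0 to 69.1 percent.

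PDC stood apart from every other population in miR-181a, the member known from T cell development. The level on the 2 PDC arrays was 0.61 and 0.83 (mean 0.72 ± 0.16, SD, n = 2). The progenitors lay well below, with -1.21 and -0.92 in MP, -1.52 and -1.36 in MDP, and -1.07 and -1.31 in CDP. In spleen, the arrays read -1.16 and -1.05 in CD4-CD8- DC, -1.84 and -1.58 in CD4+ DC, and -2.07 and -2.10 in CD8+ DC. No array of another population came within the range of PDC, and CD4-CD8- DC overlapped the progenitors. Gr1+ monocytes were lowest, at -2.26 on both arrays. In the order of the means (PDC, MP, CD4-CD8- DC, CDP, MDP, CD4+ DC, CD8+ DC, Gr1+ monocytes), 1 of the 7 steps between neighbours passed the test. That step was PDC over MP, by 1.79 ± 0.13 (SE; adjusted p = 6.26e-06, limma), in a comparison where 45.1 percent of miRNAs passed.

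miR-181b, which lies beside miR-181a in the genome, had a plateau over 4 marrow populations and low levels elsewhere. The plateau comprised CDP (-0.92 and -1.08), PDC (-1.36 and -0.95), MP (-1.48 and -1.28) and MDP (-1.48 and -1.28). None of the 3 steps within it passed the test, and the arrays of PDC overlapped those of the 3 progenitors. Below it came Gr1+ monocytes at -2.97 and -2.91, separated from MDP by 1.56 ± 0.15 (SE; adjusted p = 6.41e-05, limma). The spleen DC followed at -3.35 and -3.14 in CD4-CD8- DC, -4.03 and -3.75 in CD4+ DC, and -4.26 and -4.45 in CD8+ DC. Within spleen each step passed: CD4-CD8- DC over CD4+ DC by 0.64 ± 0.15 (SE; adjusted p = 0.0457, limma; 4.57 percent of miRNAs passed in this comparison). CD4+ DC exceeded CD8+ DC by 0.46 ± 0.15 (SE; adjusted p = 0.0426, limma; 30.9 percent).

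miR-181c, whose sequence is closest to miR-181a, was also highest in PDC, at -2.15 and -1.81. MP came next at -2.55 and -2.17, close enough that the step from PDC of 0.38 ± 0.19 (SE) did not pass (adjusted p = 0.134, limma). The arrays of these 2 populations did not overlap, with the brighter MP array at -2.17 just under the dimmer PDC array. MDP read -3.16 and -3.10, CDP -3.32 and -3.49, and CD4-CD8- DC -3.81 and -3.47. The lowest were CD8+ DC at -4.32 and -4.66, CD4+ DC at -4.66 and -4.41, and Gr1+ monocytes at -4.70 and -4.82. MDP and CDP did not overlap, and CDP and CD4-CD8- DC overlapped, since the brighter array of CD4-CD8- DC lay between the CDP arrays. Of the 7 steps, 2 passed: MP over MDP by 0.76 ± 0.19 (SE; adjusted p = 0.0375, limma), and CD4-CD8- DC over CD8+ DC by 0.85 ± 0.19 (SE; adjusted p = 0.00955, limma; 29.1 percent of miRNAs passed there).

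miR-181d, the partner of miR-181c on chromosome 8, was highest in the same 4 marrow populations as miR-181b, though in another order. It read -2.20 and -1.91 in MP, -2.53 and -2.36 in MDP, -2.52 and -2.68 in CDP, and -2.82 and -2.57 in PDC. Of the steps between these 4, none passed, although both MP arrays lay above all arrays of the other populations. PDC minus MP was -0.64 ± 0.29 (SE; adjusted p = 0.109, limma). Gr1+ monocytes lay at -4.38 and -4.45, below PDC by 1.72 ± 0.29 (SE; adjusted p = 0.0013, limma). CD4-CD8- DC read -5.08 and -4.30, CD8+ DC -5.14 and -5.70, and CD4+ DC -5.30 and -5.77. These spleen values are close to the detection limit: the member was detected on 1 of 2 arrays of CD4+ DC and of CD8+ DC, and the first CD4+ DC array was set to the floor of its design. No step below the monocytes passed.

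**Figure D1:**
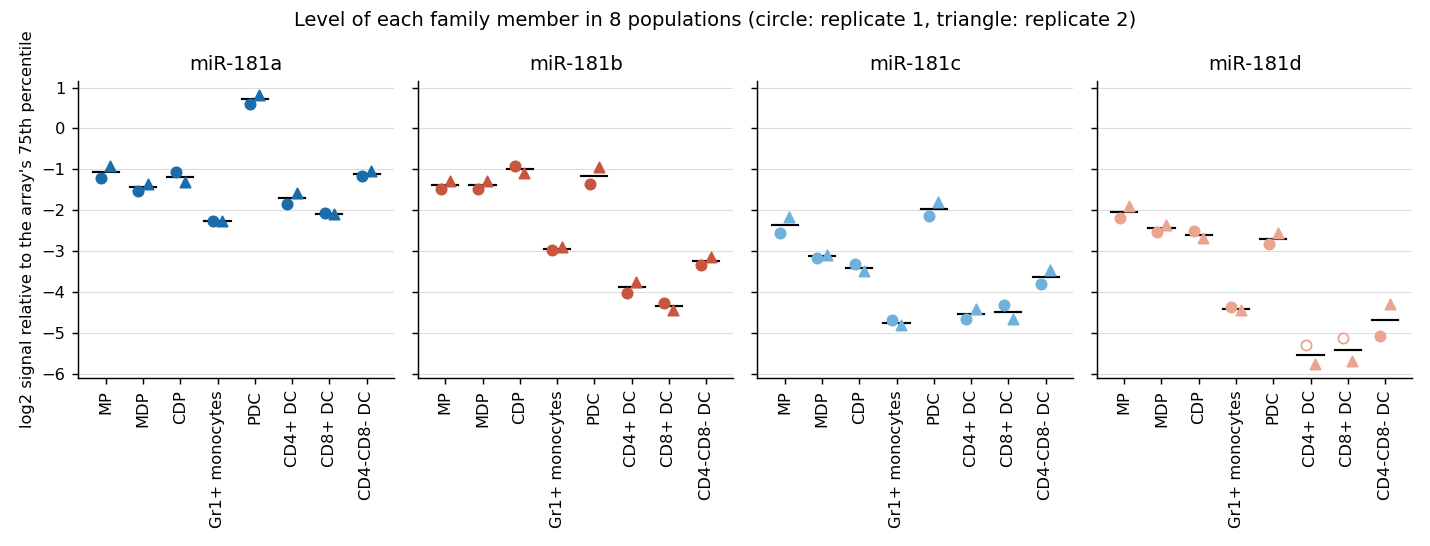
Level of each miR-181 member (log2 of the processed signal relative to the array's 75th percentile) on the 16 arrays, by population, with circles for replicate 1, triangles for replicate 2, open symbols where the member was not detected, and a bar at the mean. PDC stand above all other populations in miR-181a, while in miR-181b PDC lie among the progenitors. In miR-181d PDC overlap CDP and lie just below MP and MDP.

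Few differences within the progenitors passed the test. From MP to MDP, which differ in CD115, the receptor for the macrophage growth factor CSF1, 1 of 4 members passed the test, against 10.3 percent of all tested miRNAs (9.71 percent lower and 0.571 percent higher). miR-181c was lower in MDP by 0.76 on the log2 scale (1.70-fold; SE 0.19; adjusted p = 0.0375, limma), and the differences on the 2 array designs were -0.61 and -0.92. This call passed in 10 of 25 alternatives, with adjusted p from 0.0232 to 0.959, and was lost without the second MP array and without either array of MDP, CDP, Gr1+ monocytes or CD4+ DC. miR-181a differed by -0.37 ± 0.13, miR-181b by 0.00 ± 0.15 and miR-181d by -0.40 ± 0.29 (SE), none past the threshold, and the sign of miR-181b and miR-181d turned under other scalings. Of 3 erythroid miRNAs 1 was detected in MP and 0 in MDP, with miR-144 in neither. Their summed level ranged from -3.95 to -0.84 over the 2 MP arrays and from -3.95 to -3.71 over the MDP arrays. All 5 stem and early progenitor miRNAs were detected in both populations, and their summed level was 0.61 to 1.12 in MP and -0.53 to -0.33 in MDP, without overlap. The part of either list in the difference was not tested.

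From MDP to CDP, which differ in the amount of CD117, the receptor for stem cell factor, 0 of 4 members and 0 percent of the 175 miRNAs passed with limma. At an unadjusted p under 0.05 there were 26 of 175 miRNAs (14.9 percent), and 1 of them was a member. miR-181b differed by 0.38 ± 0.15 (SE; adjusted p = 0.259, limma), miR-181a by 0.25 ± 0.13, miR-181c by -0.28 ± 0.19 and miR-181d by -0.15 ± 0.29. With scaling over all miRNAs, miR-181b was called higher in CDP by 0.85 (adjusted p = 0.039, limma; 0.039 to 1 over its 25 alternatives), and under that scaling the median of all tested miRNAs shifted by 0.47. Under it and under quantile normalization the sign of miR-181c and miR-181d turned.

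Gr1+ monocytes had less of all 4 members than MDP, in a comparison where 17.7 percent of the tested miRNAs were called lower, 20 percent higher and 37.7 percent in either direction. miR-181d fell by 1.96 ± 0.29 (SE; adjusted p = 0.000729, limma), which is 3.90-fold. miR-181c fell by 1.63 ± 0.19 (adjusted p = 0.000192, limma), and miR-181b by 1.56 ± 0.15 (adjusted p = 6.41e-05, limma). miR-181a showed the smallest difference, -0.82 ± 0.13 (1.77-fold; adjusted p = 0.000871, limma). For each member both monocyte arrays lay below both MDP arrays. The median difference was -1.59 over the 4 members and 0.00 over all tested miRNAs. With normexp background correction (offset 50) 0 of 4 members passed, as did 11 of the 175 miRNAs. The sign turned for miR-181c (0.28) and miR-181d (0.01), while the median of all tested miRNAs shifted by 0.59. The offset exceeds the processed signals of miR-181c and miR-181d in monocytes (17.0 to 25.1) but not those of miR-181b (63.8 to 66.5) and miR-181a (100 to 109). Normexp itself was applied to the spot means and their background. The calls of miR-181b (-0.36) and miR-181a (-0.10) were lost as well, and the part of the offset was not tested.

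From CDP to PDC, miR-181a and miR-181c passed the test and miR-181b and miR-181d did not. The difference between members itself was not tested, and its values within arrays are given further on. miR-181a was 3.76-fold higher in PDC (log2 difference 1.91 ± 0.13, SE; adjusted p = 5.49e-06, limma), with 1.68 on array design 1 and 2.14 on design 2. miR-181c was 2.69-fold higher (1.43 ± 0.19, SE; adjusted p = 0.000243, limma), with 1.17 and 1.68. In this comparison 25.7 percent of the tested miRNAs were called higher and 12 percent lower. miR-181b differed by -0.15 ± 0.15 (SE; adjusted p = 0.543, limma) and miR-181d by -0.09 ± 0.29 (SE; adjusted p = 0.944, limma), and both had opposite signs on the 2 designs. Scaling bears on miR-181b: it was called lower in PDC with scaling over all miRNAs (-0.68, adjusted p = 0.00498, limma) and with quantile normalization (-0.44, adjusted p = 0.0107, limma), with p from 0.00498 to 1 over 25 alternatives. The median of all tested miRNAs shifted by -0.52 and -0.22 under these scalings, and miR-181a was called higher under both. With normexp the call of miR-181c was lost (0.75, adjusted p = 0.321, limma), where 31 of the 175 miRNAs passed. The mature lymphocyte miRNA miR-150 moved with these members, with levels from -1.11 to -0.55 in PDC and from -4.90 to -4.87 in CDP. The summed level of the 3 erythroid miRNAs, of which miR-451 alone was detected in these 2 populations, was -2.47 to -1.40 in PDC and -4.00 to -3.45 in CDP. The part of either in the result was not tested.

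In spleen DC the larger differences from CDP were those of miR-181b and miR-181d. The mean of the 3 spleen populations was below CDP for all 4 members, where 19.4 percent of tested miRNAs were called lower, 36.6 percent higher and 56 percent in either direction. miR-181b was 7.11-fold lower (-2.83 ± 0.12, SE; adjusted p = 4.21e-07, limma), and miR-181d was 6.12-fold lower (-2.61 ± 0.24, SE; adjusted p = 1.49e-05, limma). miR-181d was detected on 4 of the 6 spleen arrays, and its value became -2.72 with the floor lowered by 1. For both, all 6 spleen arrays lay below both CDP arrays. miR-181c was 1.76-fold lower (-0.81 ± 0.15, SE; adjusted p = 0.00143, limma), and its spleen arrays overlapped CDP through CD4-CD8- DC. miR-181a was 1.36-fold lower (-0.44 ± 0.10, SE; adjusted p = 0.00548, limma), a call lost without the first CDP array (-0.25, adjusted p = 0.106, limma). It was lost as well when CD8+ DC were left out of the spleen mean (-0.22, adjusted p = 0.151, limma; 4.94e-05 to 0.526 over 26 alternatives). CD4-CD8- DC alone were not below CDP in miR-181a (0.08 ± 0.13, SE; adjusted p = 0.711, limma). Their miR-181c did not pass against CDP either (-0.23 ± 0.19, SE; adjusted p = 0.402, limma), where 43.4 percent of miRNAs passed. For the spleen mean with normexp, where 42 of the 175 miRNAs passed, miR-181b alone of the members did. miR-181a (-0.32), miR-181c (-0.29) and miR-181d (-0.83) did not. The comparisons of PDC and of spleen DC share the CDP arrays.

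Marker miRNAs differed in monocytes and spleen DC as well, in both directions. Of 5 stem and early progenitor miRNAs, all 5 were detected in each progenitor population, 4 in PDC, 2 in Gr1+ monocytes, 2 in CD4+ DC, 2 in CD4-CD8- DC and 1 in CD8+ DC. Their summed level ranged from -1.20 to 1.12 over the progenitor arrays, from -2.02 to -1.66 in PDC, from -2.65 to -2.52 in monocytes and from -2.88 to -1.72 in the spleen DC. miR-126-3p, the member of that list known from blood stem cells, was detected on 0 monocyte and spleen arrays, as were miR-196b and miR-130a. Mean levels of miR-125b-5p and miR-99a were -3.08 and -3.99 in CDP. They were not lower in CD4+ DC (-3.02 and -3.85) or CD4-CD8- DC (-2.80 and -3.78). In Gr1+ monocytes (-3.92 and -4.83) and CD8+ DC (-4.27 and -5.05) they were lower. The erythroid list reached its highest level in CD8+ DC (-0.82 to 0.38) and CD4+ DC (-1.66 to -0.20), led by miR-451, while miR-144 was not detected on any array. The mature lymphocyte miRNA miR-150 was higher in spleen DC than in CDP by 3.61 ± 0.46 (SE; adjusted p = 0.000124, limma), with levels from -2.49 to -0.12 in spleen and from -4.90 to -4.87 in CDP. The part of these in the result was not tested, and in such pools fewer cells of a type and less RNA per cell cannot be told apart.

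PDC and spleen DC, which differ in tissue as well as in type, were far apart in all 4 members, where 18.3 percent of miRNAs were called higher in PDC, 24.6 percent lower and 42.9 percent in either direction. miR-181b was 6.39-fold higher in PDC (2.68 ± 0.12, SE), miR-181d 5.75-fold (2.52 ± 0.24, or 2.63 with the floor lowered), miR-181a 5.10-fold (2.35 ± 0.10) and miR-181c 4.72-fold (2.24 ± 0.15). The largest adjusted p of limma among the 4 was 3.14e-05. For every member, both PDC arrays lay above all 6 spleen arrays, and the 4 differences lay between 2.24 and 2.68. With normexp, 2 of 4 passed, miR-181a and miR-181b, where 16 of the 175 miRNAs did.

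PDC and Gr1+ monocytes came from the same tissue and the same number of mice, and again all 4 members were higher in PDC (22.9 percent of miRNAs called higher, 17.7 percent lower, 40.6 percent in either direction). miR-181a was 7.89-fold higher (2.98 ± 0.13, SE; adjusted p = 8.85e-07, limma) and miR-181c 6.87-fold (2.78 ± 0.19, SE; adjusted p = 6.94e-06, limma). miR-181b and miR-181d differed less, by 3.45-fold (1.79 ± 0.15) and 3.29-fold (1.72 ± 0.29). The arrays of the 2 populations did not overlap for any member. With normexp, 1 of 4 passed, miR-181a, where 101 of the 175 miRNAs did. The sign of miR-181d turned (-0.34), while the median of all tested miRNAs shifted by -0.78.

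Within spleen, CD8+ DC had less miR-181a and miR-181b than the mean of the other spleen DC, which makes 2 of 4 members called, against 7.43 percent of miRNAs called lower, 25.7 percent higher and 33.1 percent in either direction. miR-181b differed by -0.78 ± 0.13 (SE) and miR-181a by -0.68 ± 0.11 (SE), each with an adjusted p of 0.00238 (limma). miR-181c differed by -0.40 ± 0.16 (SE; adjusted p = 0.0851, limma) and miR-181d by -0.31 ± 0.25 (SE; adjusted p = 0.368, limma). miR-181c passed with scaling over all miRNAs (-1.15), with quantile normalization (-0.87) and without the first CD8+ DC array (-0.65), with adjusted p of limma from 0.000923 to 0.937 over 25 alternatives. With normexp 0 of 4 members and 1 of the 175 miRNAs passed. The values were 0.00 for miR-181b, 0.14 for miR-181c and 0.10 for miR-181d. The other spleen DC were not alike. CD4-CD8- DC exceeded CD4+ DC in miR-181a (0.60), miR-181b (0.64) and miR-181c (0.89), where 4.57 percent of miRNAs passed, while miR-181d (0.85) did not pass. Against CD4+ DC alone, CD8+ DC were lower in miR-181b (-0.46; adjusted p = 0.0426, limma). There miR-181a (-0.38; adjusted p = 0.0513, limma), miR-181c (0.04) and miR-181d (0.11) did not pass, where 30.9 percent of miRNAs did. The gate of CD8+ DC differed from the others in CD86 as well as in CD8.

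**Figure D2:**
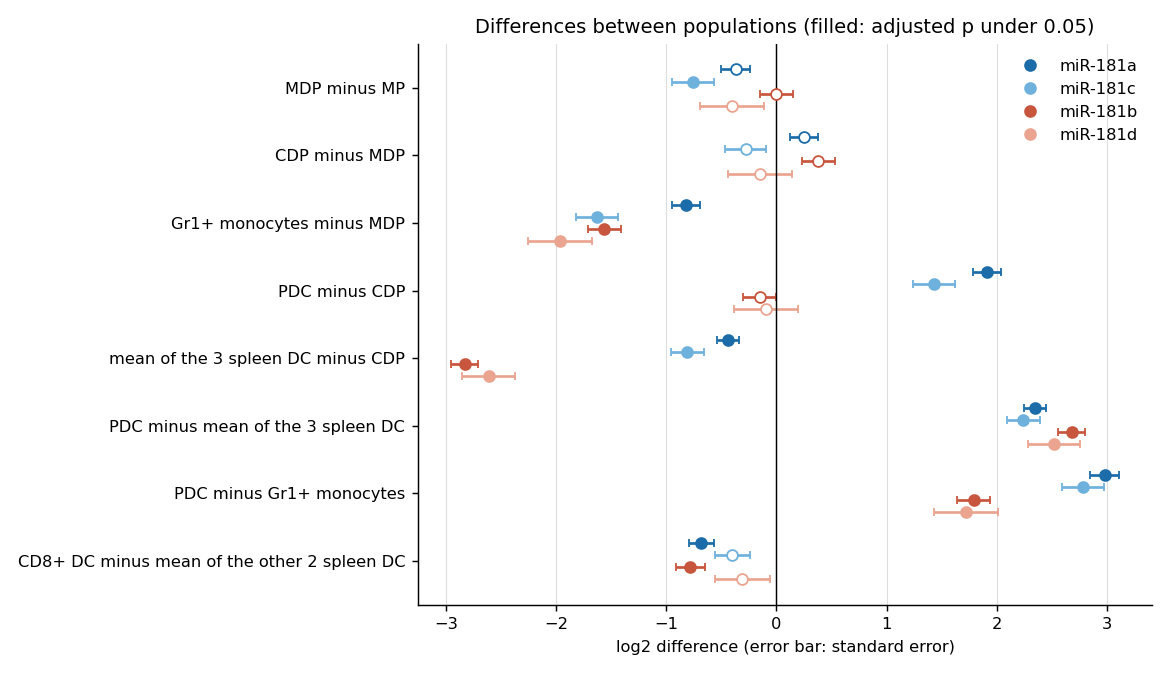
Log2 difference of each miR-181 member in 8 comparisons between populations from the limma fit, with standard errors as bars and filled symbols where the adjusted p is under 0.05. From CDP to PDC miR-181a (1.91) and miR-181c (1.43) lie to the right and miR-181b (-0.15, called lower under 2 other scalings) and miR-181d (-0.09) near 0, and from CDP to the spleen DC miR-181b (-2.83) and miR-181d (-2.61) lie farthest left.

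Differences taken within an array cancel its scaling factor as long as no value is at the floor, and show whether members of one genomic pair changed alike. Since probes differ in brightness, only the change of such a difference between populations is read. The mean of miR-181a and miR-181b minus the mean of miR-181c and miR-181d, which sets the 2 kinds of locus against each other, was 0.98 ± 0.07 (SD, n = 2) in MP, 1.38 ± 0.05 in MDP and 1.91 ± 0.02 in CDP. It was 2.12 ± 0.01 in PDC, 1.99 ± 0.09 in monocytes, 1.74 ± 0.24 in CD8+ DC, 1.99 ± 0.29 in CD4-CD8- DC and 2.24 ± 0.27 in CD4+ DC. MP and MDP were lower than the rest, whose arrays lay between 1.57 and 2.43, and the population means covered a range of 1.25. With normexp MP and MDP were not lower than all the rest: the progenitor arrays lay between 0.66 and 1.25, the spleen arrays between 0.52 and 1.02, and the mean of monocytes was 0.42. Scaling over all miRNAs moved the lowest spleen array to 1.18, under the MDP mean of 1.38, while the progenitor arrays stayed between 0.94 and 1.93.

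The difference between neighbours on the same chromosome varied more. miR-181a minus miR-181b was between -0.23 and 0.36 on the 6 progenitor arrays and between 2.10 and 2.35 on the 6 spleen DC arrays. The mean went from 0.02 to 2.20, a 4.51-fold change of the ratio. PDC lay close to spleen at 1.87 ± 0.13 (SD, n = 2), and Gr1+ monocytes lay between, at 0.68 ± 0.04. The population means covered a range of 2.46, and progenitor and spleen arrays did not overlap.

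On chromosome 8, too, the difference between the neighbours was higher in spleen DC and PDC than in the progenitors. miR-181c minus miR-181d was between -0.81 and -0.27 on the progenitor arrays and between 0.64 and 1.37 on the spleen DC arrays, a 3.02-fold change of the mean ratio. It was 0.71 ± 0.07 (SD, n = 2) in PDC and -0.35 ± 0.03 in Gr1+ monocytes, which here lay within the range of the progenitors. The spleen end of this difference rests on miR-181d near its detection limit, and the lowest spleen array moved from 0.64 to 0.04 with scaling over all miRNAs, where the change was 2.70-fold. Progenitor and spleen arrays did not overlap in either difference under any of the scalings, probe choices, floors and background corrections tried, although with normexp the change fell to 2.29-fold for a over b and to 1.37-fold for c over d.

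Joined across loci by sequence, the mean of a and c minus the mean of b and d ran from -0.50 ± 0.03 (SD, n = 2) in CDP, -0.37 ± 0.05 in MDP and 0.00 ± 0.06 in MP to 1.29 ± 0.03 in PDC and 1.59 to 1.60 in the spleen DC. Gr1+ monocytes lay near the progenitors, at 0.16 ± 0.04. This way of joining the members was chosen after their values were seen. Its population means covered a range of 2.10, compared with 1.25 for the grouping by locus.

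**Figure D3:**
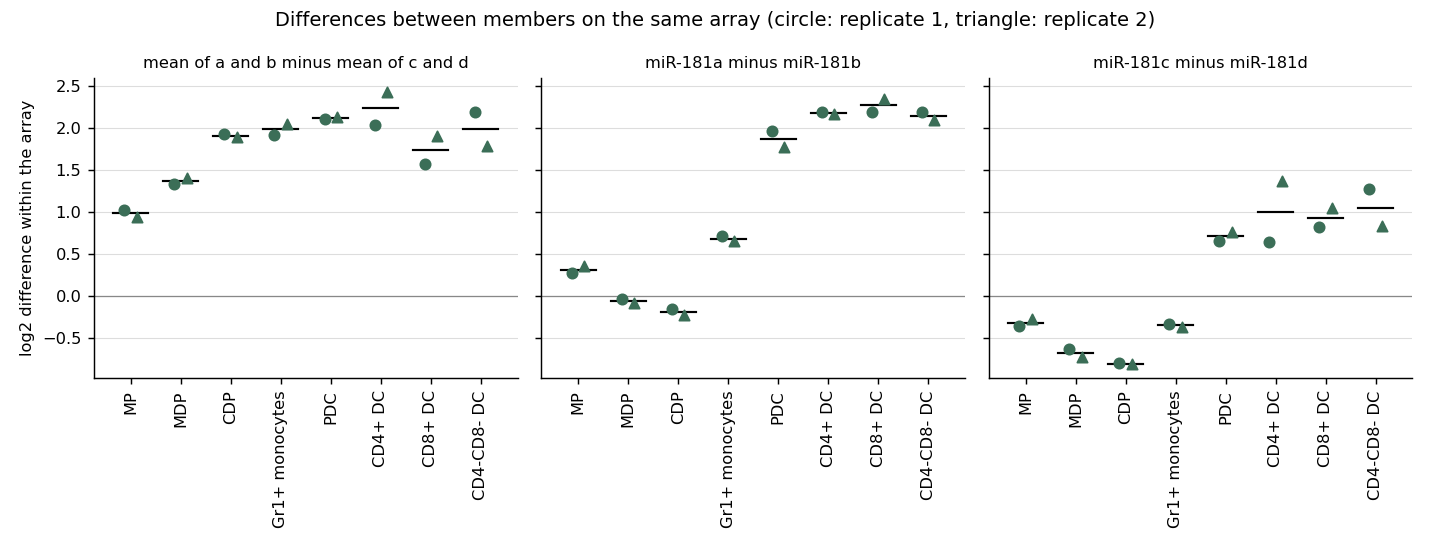
Log2 differences between members on the same array, by population, with circles for replicate 1, triangles for replicate 2 and a bar at the mean. Both a minus b and c minus d are higher in PDC and spleen DC than in the 3 progenitors. The a and b mean against the c and d mean is lowest in MP (0.98) and MDP (1.38), which normexp did not keep. With scaling over all miRNAs its lowest spleen array was 1.18, under the MDP mean.

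As a description over the 16 arrays, with the mean of each array design removed, miR-181b and miR-181d had the highest Pearson r (0.963, Spearman 0.794), and miR-181a and miR-181c the next (0.859) and the highest Spearman value (0.874). Neighbours on the genome were less alike for a and b (r = 0.612), whereas c and d had r = 0.832. Across both, b and c had r = 0.809, and the lowest value was that of a and d (0.536). Within design 1 and design 2, each with 8 arrays, r of b with d was 0.965 and 0.963, and r of a with c was 0.836 and 0.880. Leaving out the 2 arrays farthest from the median of the first member left 0.960 for b with d and 0.846 for a with c. These arrays share populations, scaling and slides, and the probes of each of these pairs share bases, so no test was made.

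The star form of miR-181a, the other arm of its hairpin, differs between the chromosomes, and it is shown because it can tell the loci apart where the main arm cannot. The RefSeq arms are as follows, with no part in capitals:
miR-181a-1-3p, chr1:137966508-137966529: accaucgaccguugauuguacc
miR-181a-2-3p, chr2:38852785-38852806: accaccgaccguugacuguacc
The 2 probes for miR-181a-1* pair with their arm along their whole length of 17 or 18 bases. The 4 probes for miR-181a-2* pair with theirs over 13 to 16 bases and carry 3 further bases outside the arm that RefSeq gives.

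miR-181a-1*, from chromosome 1, was detected on 7 of 16 arrays, all of them from progenitors or PDC. Its processed signal, a linear value before scaling, was 31.5 and 20.6 in CDP, 23.5 and 44.1 in PDC, 16.7 and 14.4 in MP, and 17.4 and 11.9 in MDP, where the second array was not detected. It was between 2.15 and 7.28 on all 8 arrays of monocytes and spleen DC, and on none of them well above background. Set against the dimmest detectable signal of those arrays, CDP were at least 1.65-fold above Gr1+ monocytes, 1.97-fold above CD4+ DC, 1.62-fold above CD8+ DC and 1.69-fold above CD4-CD8- DC. For PDC the bounds were 1.73, 2.05, 1.69 and 1.77 in that order. PDC and CDP differed by 0.06 ± 0.16 (SE; adjusted p = 0.916, limma), where the main arm miR-181a differed by 1.91.

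miR-181a-2*, from chromosome 2, was detected on 0 of 16 arrays and was not tested, so the loci could not be compared. Over the 16 arrays miR-181a-1* was closer to miR-181b (r = 0.895) than to miR-181a (r = 0.715), the mature miRNA of its own hairpin. Without the 2 arrays farthest from each member's median, these were 0.910 and 0.563. On 8 of 16 arrays miR-181a-1* was at the floor, which all these values share.

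**Figure D4:**
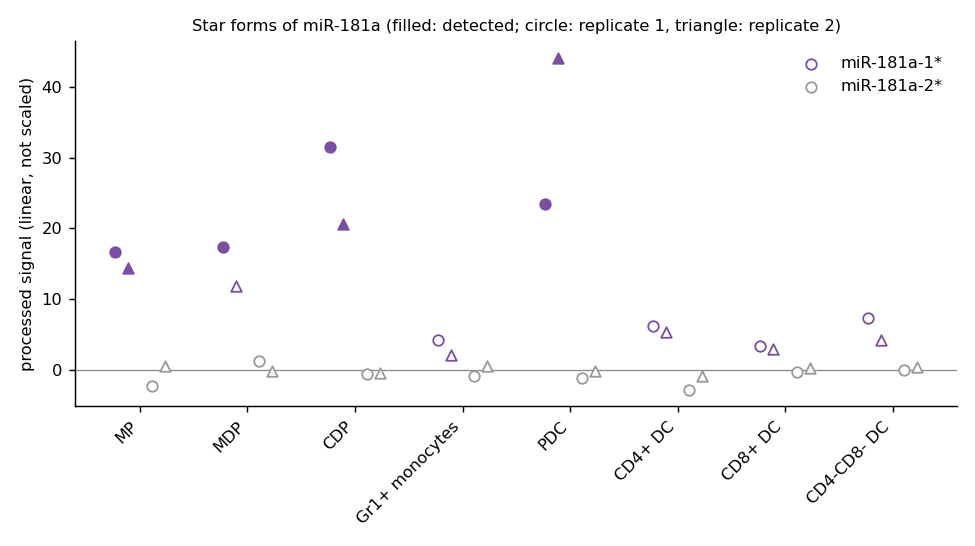
Processed signal of the star forms miR-181a-1* and miR-181a-2* on the 16 arrays, on a linear scale before scaling between arrays, with circles for replicate 1, triangles for replicate 2 and filled symbols where detected. miR-181a-1* is above background in PDC and in progenitors, except on the second MDP array (11.9). It is at 2.15 to 7.28 in monocytes and spleen DC, and miR-181a-2* lies around 0 on all arrays.

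Outside the family, 170 tested miRNAs were ranked by how alike their levels were to each member over the 16 arrays, again with the mean of each design removed. For miR-181a the highest were miR-128 (r = 0.876), miR-592 (0.866) and miR-362-5p (0.856). All 3 were highest in PDC. miR-128 had a mean of -0.77 ± 0.48 (SD, n = 2) in PDC and at most -3.20 elsewhere, and miR-592 was detected in PDC alone. Without the PDC arrays r was 0.408 for miR-128. miR-592 and miR-362-5p were at the floor in all other populations, so that their likeness rests on PDC alone. Outside PDC, miR-362-5p was detected on 1 array, of Gr1+ monocytes. At the opposite end stood the myeloid miR-223, with r = -0.913, and -0.733 without the PDC arrays. Next came miR-1904 (-0.712) and miR-697 (-0.683), whose replicate SDs reached 1.31 and 1.19.

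For miR-181b and miR-181d the same 3 miRNAs led. They were miR-25 (r = 0.911 with b and 0.948 with d), miR-106b (0.895 and 0.884) and miR-126-3p (0.868 and 0.935). miR-25 and miR-106b belong to a single cluster that is related to the miR-17 cluster of growing cells. Their span was much smaller: miR-25 ranged from 0.63 ± 0.09 (SD, n = 2) in MP to -0.30 ± 0.03 in CD4+ DC. miR-106b ranged from -0.07 ± 0.07 in MP to -0.70 ± 0.25 in CD8+ DC. miR-126-3p was detected on 0 arrays of monocytes and spleen DC, with means of -5.54 or -5.51, so its likeness has no measured basis there. For miR-181c the highest were miR-374 (r = 0.790), miR-106b (0.784) and miR-126-3p (0.777). The leading miRNA depended on the scaling and on the kind of correlation for some members.

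A list of 12 miRNAs known from lymphocytes and from the miR-17 cluster, all 12 tested, gives a setting for the family. From CDP to PDC 5 rose and 6 fell (25.7 and 12 percent of all tested miRNAs did), with a median of -0.18, against a median of 0.67 for the 4 miR-181 members and 0.00 for all tested miRNAs. miR-146a, a damper of innate signalling, rose by 3.77 ± 0.31 (SE; adjusted p = 1.36e-05, limma), and miR-18a of the miR-17 cluster fell by 2.61 ± 0.19 (SE; adjusted p = 5.49e-06, limma). From CDP to the mean of the spleen DC 6 rose and 6 fell (36.6 and 19.4 percent of all), with a median of 0.11. The 6 that rose were miR-150, miR-155, miR-146a, miR-342-3p, miR-142-3p and miR-142-5p (1.44 to 5.55). The 6 that fell were those of the miR-17 cluster (-1.98 to -1.22), which also made up the 6 that fell in PDC. Both medians of the list therefore mix 2 sets that moved in opposite directions. In the spleen mean all 4 miR-181 members were lower and had a median of -1.71. There miR-146a was higher by 5.55 ± 0.25 (SE; adjusted p = 4.89e-07, limma) and miR-342-3p by 3.31 ± 0.23 (SE; adjusted p = 3.91e-06, limma). Between PDC and the spleen DC 0 of the 12 were higher in PDC and 6 were lower by limma, and the counts were the same at an unadjusted p under 0.05 (18.3 percent of all were higher and 24.6 percent lower), where the 4 miR-181 members were higher. From MDP to monocytes 3 rose and 7 fell (20 and 17.7 percent of all).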

How the data were processed

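RNA of 8 sorted mouse populations had been labelled with Cy3 and hybridised to 16 Agilent miRNA arrays, per the labels. The deposited intensity values are background-subtracted processed signals on a linear scale, and Feature Extraction of Agilent made them, in version 9.1 per the submitters' processing notes but 10.7.3.1 in the file headers. The series tables held the same signals on all 16 arrays. Outlier spots were left out, spots were averaged per probe and probes per miRNA. A miRNA was detected where a share of 0.5 of the spots of any probe was well above background. Each array was scaled to its 75th percentile over the 88 miRNAs that every array detected (333 to 876), low values were raised to a floor (log2 -5.30 on design 1, -5.78 on design 2), and 175 miRNAs detected on both arrays of a population were fitted on the log2 scale.

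limma 3.58.1 in R 4.3.3 was used with population means and array design as a block, moderated variances, Benjamini-Hochberg adjustment within each comparison and a threshold of 0.05. The numbers pair the arrays because they mark the design: deviations of same-numbered arrays correlated in all 28 pairs of populations (0.297 to 0.917, median 0.572). A fold against a population without any detected array is a lower bound, using the lowest signal of a detected probe. The folds of miR-181d against spleen DC are those of the fit and depend on the floor. The fit was tested on simulated data. The number of arrays, 2 per population, limits the precision. The members, lists and comparisons were chosen with earlier results of these data known, and named miRNAs are the members, their star forms, the 3 most alike per member, the 3 least alike to miR-181a, and lymphocyte and marker lists. Sequences are from RefSeq and the array files.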

Additional observations from a re-analysis of the deposited data

How the results depend on the processing

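The 8 comparisons gave 21 calls of members. Of these, 20 were kept with scaling over all miRNAs, 21 with quantile normalization, 20 with the brightest and 19 with the dimmest probe (the latter chosen after seeing the data), 21 with the floor lowered by 1, 20 with no replicate block, 20 with all miRNAs tested and 17 of 17 with miRNAs detected on all arrays. With normexp 5 were kept, 12 were lost and 4 turned. Calls over all 175 tested miRNAs changed too. They fell from 66 to 11 for monocytes minus MDP and from 66 to 31 for PDC minus CDP. They fell from 98 to 42 for spleen DC minus CDP and from 75 to 16 for PDC minus spleen DC. For CD8+ DC they fell from 58 to 1, while for PDC minus monocytes they rose from 71 to 101. The members called fell with normexp to 2 in the F test, 0 for monocytes minus MDP, 1 for PDC minus CDP, 1 for spleen DC minus CDP, 2 for PDC minus spleen DC, 1 for PDC minus monocytes and 0 for CD8+ DC, and calls summed over the 4 members and 28 pairs of populations fell from 79 to 26. Its turned values were 0.28 for miR-181c and 0.01 for miR-181d in monocytes minus MDP, -0.34 for miR-181d in PDC minus monocytes, and 0.00, 0.14 and 0.10 for miR-181b, miR-181c and miR-181d in CD8+ DC. The offset of 50 exceeds the processed signals of miR-181d in spleen DC, 8.93 to 28.1, and the part of the offset in these changes was not tested.

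In MDP minus MP 0 members were called with scaling over all miRNAs, normexp, the brightest or dimmest probe, no replicate block or all miRNAs tested, and 0 to 1 without single arrays. With scaling over all miRNAs and with normexp, 0 of all 175 tested miRNAs were called in this comparison. Without the replicate block no other call was lost. miR-181b turned there to 0.28 (all miRNAs), 0.16 (quantile), 0.04 (normexp), 0.18 (brightest) and 0.03 (dimmest), and ranged from -0.04 to 0.04 without single arrays. miR-181d turned to 0.16 (quantile). In CDP minus MDP 1 member was called with scaling over all miRNAs, miR-181c turned to 0.19 and miR-181d to 0.32, and to 0.13 and 0.00 with quantile normalization. In PDC minus CDP, without single arrays, miR-181b ranged from -0.32 to 0.01 and miR-181d from -0.22 to 0.04, both turning without the first CDP or first PDC array. In CD8+ DC miR-181d ranged from -0.65 to 0.02 and turned without the second CD8+ DC array. The call of miR-181a in monocytes minus MDP was lost with the dimmest probe (-0.49, adjusted p = 0.0592, limma; 0.000195 to 0.771 over 25 alternatives). The cause was not tested.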
